A study of Mus musculus with 14 samples.

Results

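The nuclear genes for the subunits of the mitochondrial oxidative phosphorylation complexes were examined as a group. Members were chosen by symbol alone: protein-coding genes beginning with Ndufa, Ndufb, Ndufc, Ndufs, Ndufv, Uqcr, Cox4i, Cox5, Cox6, Cox7, Cox8 or Atp5, together with Sdha to Sdhd, without the Ndufaf assembly factors. This gave 86 gene identifiers of 55487 in the count tables, under 85 symbols, because Atp5o had a second identifier that held no counts. Of these, 38 belong to complex I by name, 4 to complex II, 8 to complex III, 18 to complex IV and 18 to the ATP synthase.

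Oxidative phosphorylation takes place in the inner mitochondrial membrane. Complex I (NADH dehydrogenase) and complex II (succinate dehydrogenase) pass electrons to ubiquinone, complex III passes them to cytochrome c and complex IV passes them to oxygen, and the ATP synthase uses the resulting proton gradient to make ATP. A few core subunits are encoded by the mitochondrial genome and the remainder, including many small accessory subunits, by nuclear genes. Hematopoietic stem cells are known for relying less on this pathway than the dividing progenitors they give rise to.

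RNA was sequenced from 14 libraries in the tables. LSK (Lin- Sca-1+ c-Kit+) stem and progenitor cells and LK (Lin- c-Kit+, Sca-1-) myeloid progenitors were sorted from lineage-depleted marrow of Jak2VF/+ mice, with 3 PBS and 2 IL-1β libraries for each population. Here the Jak2V617F mutation was heterozygous and had been switched on in donor marrow by pI-pC through Mx1Cre, and wild-type C57BL/6 recipients, lethally irradiated, received that marrow. Both treatment groups therefore carried the mutation, so that the LSK and LK libraries include none from mice with wild-type donor marrow. Vehicle (PBS) or IL-1β at 0.5 μg a dose was injected intraperitoneally 3 times a week for 16 weeks. Mesenchymal stromal cells (MSC) were grown from wild-type C57BL/6 marrow and exposed in culture to PBS (2 libraries) or to IL-1β at 5 ng/ml (2 libraries) for 72 h. The labels did not say whether libraries of a group came from separate mice or cultures, and p-values measure the spread between libraries.

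Counted read pairs ranged from 4393233 to 18544346 in LSK and LK and from 5834909 to 30871055 in MSC, and the shallowest library was LSK IL-1β replicate 2. The members took 0.697% to 1.72% of these counts. LSK cells of the PBS mice had higher counts than LK cells for all 8 stem cell markers tested and lower counts for all 8 erythroid markers. The MSC libraries held macrophage marker RNA as well: the summed level of 8 macrophage markers (Ptprc, Csf1r, Cd68, Adgre1, Lyz2, Cd14, Mrc1 and Tyrobp) was 8781 to 12593 CPM (counts scaled to library size) with PBS, against 1473 to 2963 CPM for 10 mesenchymal markers, and Lepr was at 0 in both PBS libraries. In bulk RNA, fewer cells of a type and less RNA per cell cannot be told apart.

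The promoters of 5 members described in the comparisons are shown, to place them beside the binding letters of the factors known to drive this gene family. These 5 were picked after the search, from members whose promoter holds a match, so that the matches in them say nothing about how common the letters are. The sequences are from RefSeq (GRCm38.p6), run 5′ to 3′ on the strand of the gene and cover 250 bases before to 50 bases after the transcription start. Capitals mark matches, on either strand, to the letters searched: GCGCATGC or GCGCACGC for NRF1, CCGGAAGT for GABPA and AAGATGGC for YY1. GCGCATGC matches itself on the other strand when read at an offset of 2 bases, so that a run of 10 capitals is 2 overlapping matches. The 5 windows are Cox6a1 at chr5:115348909-115349208, Ndufc1 at chr3:51408906-51409205, Atp5g2 at chr15:102670998-102671297, Uqcr11 at chr10:80406772-80407071 and Atp5l at chr9:44920693-44920992, all on the minus strand.
Cox6a1: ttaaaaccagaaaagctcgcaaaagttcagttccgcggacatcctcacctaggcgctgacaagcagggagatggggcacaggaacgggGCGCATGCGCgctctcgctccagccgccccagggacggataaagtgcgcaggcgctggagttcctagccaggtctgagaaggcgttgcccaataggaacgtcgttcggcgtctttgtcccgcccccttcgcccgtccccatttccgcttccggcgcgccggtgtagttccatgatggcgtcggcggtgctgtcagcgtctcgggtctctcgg
Ndufc1: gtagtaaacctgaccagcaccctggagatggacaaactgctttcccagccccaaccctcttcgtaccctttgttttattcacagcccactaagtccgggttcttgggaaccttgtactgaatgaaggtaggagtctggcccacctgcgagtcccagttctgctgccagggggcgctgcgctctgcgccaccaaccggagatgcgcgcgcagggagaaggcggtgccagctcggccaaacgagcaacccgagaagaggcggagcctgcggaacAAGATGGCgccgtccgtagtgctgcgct
Atp5g2: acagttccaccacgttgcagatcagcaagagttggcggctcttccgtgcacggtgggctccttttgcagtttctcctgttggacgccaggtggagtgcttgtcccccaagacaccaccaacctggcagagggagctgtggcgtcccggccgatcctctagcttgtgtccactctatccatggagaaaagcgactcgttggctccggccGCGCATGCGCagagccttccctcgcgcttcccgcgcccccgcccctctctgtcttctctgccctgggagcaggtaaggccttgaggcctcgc
Uqcr11: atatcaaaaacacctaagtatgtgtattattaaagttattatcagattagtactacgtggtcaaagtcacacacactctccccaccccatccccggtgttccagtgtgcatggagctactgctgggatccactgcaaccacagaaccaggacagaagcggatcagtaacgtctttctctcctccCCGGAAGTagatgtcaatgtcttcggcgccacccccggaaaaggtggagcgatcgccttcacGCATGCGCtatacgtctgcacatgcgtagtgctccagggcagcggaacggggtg
Atp5l: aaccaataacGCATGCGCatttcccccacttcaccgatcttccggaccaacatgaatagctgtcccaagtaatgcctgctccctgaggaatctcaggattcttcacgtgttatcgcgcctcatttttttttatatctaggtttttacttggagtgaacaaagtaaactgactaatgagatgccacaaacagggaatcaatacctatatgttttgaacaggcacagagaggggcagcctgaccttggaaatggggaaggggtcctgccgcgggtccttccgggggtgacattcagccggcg

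A promoter was given for 69 of the 85 symbols. The NRF1 letters were in the promoters of 15 members (21.7%), against 6.08% of all 27025 genes with a promoter. The YY1 letters were in 10 members (14.5%, against 3.19%) and the GABPA letters in 5 (7.25%, against 4.31%). Among the 5 promoters shown, Cox6a1, Atp5g2 and Atp5l hold the NRF1 letters only, Ndufc1 holds the YY1 letters and Uqcr11 holds the GABPA and the NRF1 letters. Cox6a1 and Atp5g2, which both hold the NRF1 letters, had log2 fold changes of 1.31 ± 0.38 SE and -0.84 ± 0.75 SE in the LSK comparison described next. For Atp5g2 the libraries overlapped between groups, and a link between letters and change was not tested. The members also share a short transcript. The median exonic length of the 80 members tested in LSK was 1631 bases, against 4199 bases for all 13132 genes tested, and for that reason each comparison was also fitted with an offset that removes the trend of each library with gene length.

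Levels of different members were compared per length, as TPM (counts per base of exon, scaled to a fixed total over nuclear protein-coding genes). With PBS, the alpha and beta F1 subunits of the ATP synthase had the highest mean levels in the hematopoietic cells. Atp5a1 (alpha subunit) was at 1737, 2255 and 1483 TPM in the LSK PBS libraries and at 1682, 1664 and 1759 TPM in LK. Atp5b (beta subunit) followed, at 1217, 1451 and 1236 TPM in LSK and 1608, 1540 and 1712 TPM in LK. Every LSK PBS library had more Atp5a1 than the highest PBS value of Atp5b, while in LK with PBS the ranges of both genes overlapped.
In MSC with PBS the same genes lay lower, Atp5a1 at 549 and 604 TPM and Atp5b at 485 and 374 TPM. The leading members there were subunits of complex IV: Cox6a1 at 1063 and 1436 TPM, Cox4i1 at 1017 and 1259 TPM and Cox8a at 887 and 1210 TPM, with overlapping ranges. Per length, the summed ATP synthase genes gave 5584, 7666 and 5935 TPM in LSK, 7719, 7242 and 7482 TPM in LK and 3531 and 3761 TPM in MSC.

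At the other end of the order were the tissue isoforms. Cox7b2 and Cox8b had no count in any library and Cox8c had 1 count in all. Ndufa4l2 was at 0 in every LSK library and had 2 counts in 1 LK library, while the MSC PBS libraries had 71 counts each. Cox4i2 (18, 30 and 23 counts), Cox6a2 (9, 28 and 17 counts) and Cox7a1 (3, 0 and 4 counts) were scarce in LSK with PBS. Ndufb2, a small complex I subunit, was also near the bottom, at 4.36, 0.768 and 3.81 TPM in LSK. Its exons overlap another annotated gene on the same strand, and read pairs shared by both are not counted, so its level is a lower limit.
Cox6b2, the isoform of Cox6b1 best known from testis, was far from absent in the progenitors. It made up 25.6%, 24% and 21.8% of the summed Cox6b1 and Cox6b2 TPM in LK with PBS, 13.5%, 8.98% and 12.9% in LSK with PBS and 0.626% and 0.282% in MSC with PBS. The 3 populations did not overlap in this share.

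In LSK cells, the comparison of IL-1β with PBS asked how prolonged IL-1β changed the stem and progenitor cells of Jak2VF/+ mice. Most subunit genes lay higher with IL-1β, but none passed the test used here. Of 80 members tested, 75 had a positive log2 fold change and their median was 0.73, against -0.06 for all genes tested. Both IL-1β libraries lay above all 3 PBS libraries for 33 members, against 18.2% of all genes tested, and below them for 0 members, against 21.4% of all genes. Calls were made with edgeR's quasi-likelihood test, at a Benjamini-Hochberg adjusted p under 0.05 together with a change of over 0.5 log2 units. By this measure 0 members were called higher (0.32% of all genes) and 0 lower (0.312%). At an unadjusted edgeR p under 0.05, 30 members were higher and 0 lower, against 1052 and 1379 of all 13132 genes tested. DESeq2 called 13 members higher, and the share of all genes it called is not given here. In the DESeq2 fit 75 of 80 members were positive, against 48.3% of all genes tested.

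**Figure D1:**
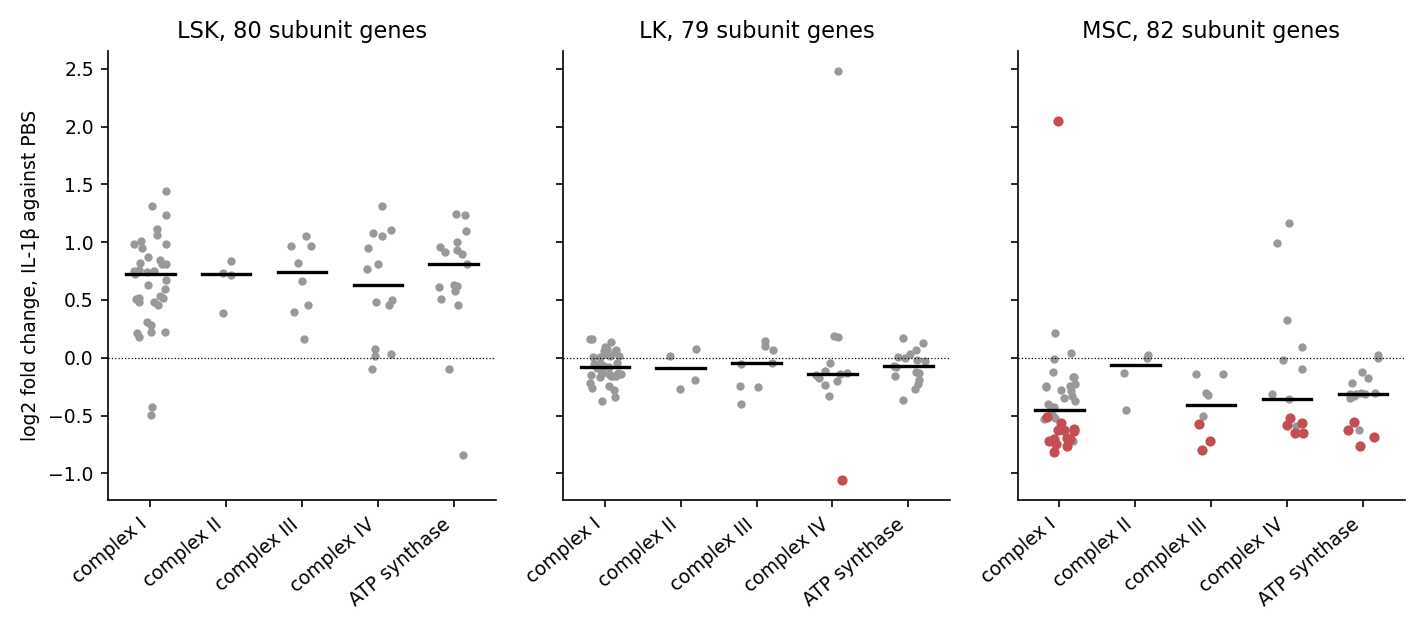
Log2 fold change of each subunit gene tested (points) with IL-1β against PBS in LSK, LK and MSC, by complex. Black bars are the median of each complex and red points are genes called by edgeR. In LSK most points lie above 0 and none is called. In LK the points lie close to 0 apart from Cox6a2 at 2.48 and Cox6b2 at -1.05. In MSC 25 genes are called lower and Ndufa4l2 is called higher.

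The shift was of similar size in each complex. The median log2 fold change was 0.72 over 37 complex I genes, 0.72 over the 4 complex II genes, 0.74 over the 8 complex III genes, 0.63 over 14 complex IV genes and 0.81 over 17 ATP synthase genes.
In complex I, Ndufa5, an accessory subunit of the matrix arm, had the largest change. It was at 16.4, 28.7 and 23.0 CPM with PBS and at 52.1 and 71.6 CPM with IL-1β. Both IL-1β libraries lay above the PBS libraries (log2 fold change 1.44 ± 0.31 SE, edgeR adjusted p = 0.076). Ndufc1, a membrane-arm subunit, was at 16.2, 28.7 and 19.9 CPM with PBS and at 46.4 and 61.5 CPM with IL-1β, again without overlap (1.32 ± 0.32 SE, edgeR adjusted p = 0.094). Among the core subunits that carry the flavin and the iron-sulfur clusters, Ndufv1 was at 134, 235 and 167 CPM with PBS and at 271 and 329 CPM with IL-1β, and Ndufs1 was at 115, 160 and 118 CPM and at 216 and 179 CPM. Their groups did not overlap either, with edgeR adjusted p = 0.207 and 0.25.

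In complex II, Sdha, the flavoprotein of succinate dehydrogenase, was at 391, 463 and 422 CPM with PBS and at 585 and 530 CPM with IL-1β (0.39 ± 0.24 SE). In complex III, Uqcrfs1, the Rieske iron-sulfur protein, was at 102, 137 and 115 CPM and at 151 and 311 CPM (0.97 ± 0.32 SE), whereas the core protein Uqcrc2 overlapped between groups, at 133, 121 and 185 CPM and at 142 and 186 CPM. Of these genes, Uqcrc2 alone overlapped between the groups.
In complex IV, Cox6a1 was at 139, 325 and 143 CPM with PBS and at 435 and 569 CPM with IL-1β (1.31 ± 0.38 SE, edgeR adjusted p = 0.133). Cox5a, which helps to regulate the enzyme, was at 117, 130 and 140 CPM and at 234 and 302 CPM (1.06 ± 0.24 SE, edgeR adjusted p = 0.080). Cox5a had the tighter PBS libraries, whereas PBS replicate 2 stood apart from the other PBS libraries for Cox6a1.

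The 3 genes of the ATP synthase c subunit, which forms the rotating ring, encode the same mature protein and went apart. Atp5g3 was at 192, 447 and 235 CPM with PBS and at 532 and 843 CPM with IL-1β (1.24 ± 0.38 SE, edgeR adjusted p = 0.146). Atp5g1 was at 103, 96.4 and 109 CPM and at 144 and 239 CPM (0.90 ± 0.27 SE, edgeR adjusted p = 0.14). Atp5g2 had the lowest fold change of any member, at 132, 18.3 and 161 CPM with PBS and at 45.6 and 70.9 CPM with IL-1β (-0.84 ± 0.75 SE, edgeR adjusted p = 0.578). Here PBS replicate 2 lay below both IL-1β libraries and the other PBS libraries lay above them. Per length, Atp5g3 made up 46.9%, 87.0% and 47.7% of the 3 c-subunit genes in PBS replicates 1, 2 and 3, against 81.2% and 81.0% after IL-1β, so that PBS replicate 2 had the proportions of the IL-1β libraries.

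**Figure D2:**
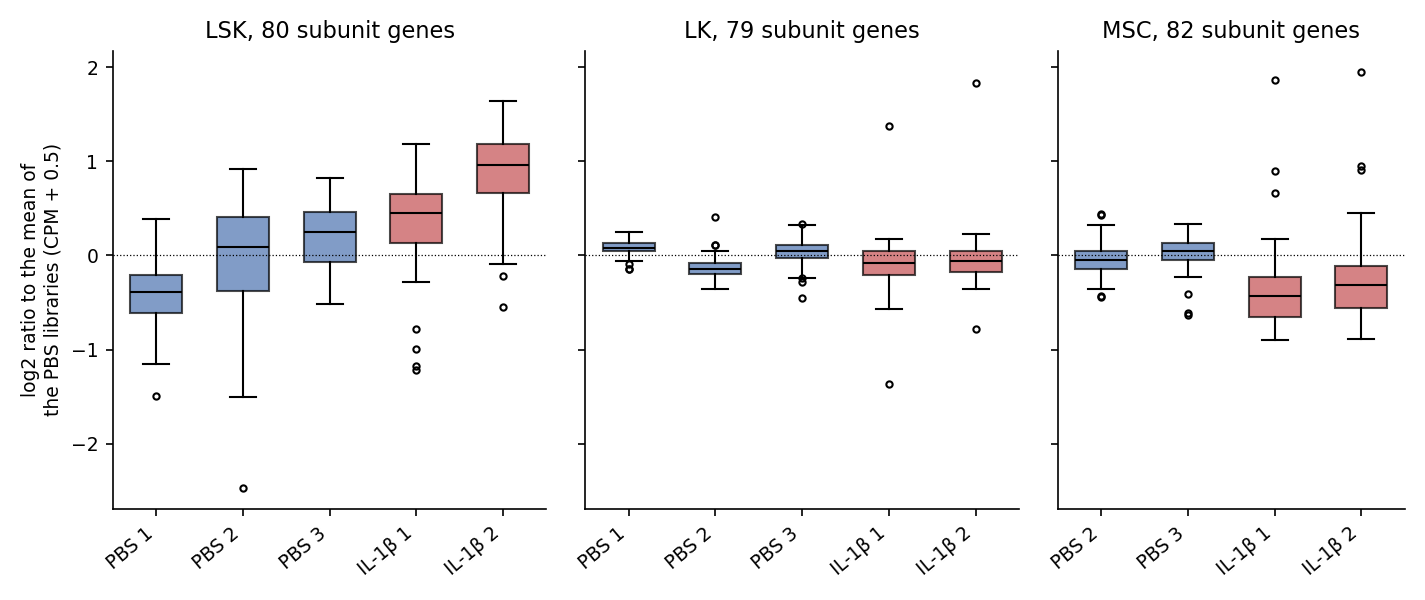
Log2 ratio of each subunit gene to its mean over the PBS libraries, one box per library (line at the median, box from the 25th to the 75th percentile, whiskers to 1.5 times that range, circles beyond). PBS libraries are blue and IL-1β libraries red. The LSK PBS medians run from -0.39 to 0.25 and the IL-1β medians are 0.45 and 0.96, while the LK medians all lie between -0.14 and 0.08 and the MSC IL-1β medians are -0.43 and -0.32.

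The LSK PBS libraries differed from each other. The median log2 ratio of the members to their PBS mean was -0.39 in replicate 1, 0.08 in replicate 2 and 0.25 in replicate 3, against 0.45 and 0.96 after IL-1β. PBS replicate 1 was the lowest PBS library for 55 of the 80 members. PBS replicate 2 was the highest for 35 and the lowest for 24, a wider spread than the other two had. It also had 3.58% of its counts on rRNA, against 0.239% and 0.798% in PBS replicates 1 and 3 and 2.38% and 1.45% after IL-1β. Without PBS replicate 2 the median log2 fold change was 0.80 and 71 of 80 members were positive, against 48.3% of all genes tested. Without IL-1β replicate 2 the median was 0.48 and 67 were positive, against 46.2% of all genes. With the gene length offset the median fell to 0.47 and 66 members stayed positive.
Marker genes moved with the comparison. The summed level of 6 myeloid progenitor markers (Mpo, Elane, Prtn3, Ctsg, Ms4a3 and Cebpe) was 2151 to 3388 CPM with PBS and 9806 to 11232 CPM with IL-1β, with 4 of 6 called higher. The 8 stem cell markers summed to 1005 to 1448 CPM with PBS and to 417 to 597 CPM with IL-1β, with 3 of 8 called lower, and 8 late neutrophil markers summed to 2.49 to 10.8 CPM and to 150 to 183 CPM. The 4 lymphoid markers summed to 132, 346 and 109 CPM in PBS replicates 1, 2 and 3 and to 3.59 and 7.74 CPM with IL-1β, with 1 of 3 tested called lower (Dntt), Cd79a at 0 with IL-1β, and PBS replicate 2 apart from the others. None of the first 2 lists was at 0 in either group. The part of cell composition, of PBS replicate 2 or of rRNA in the subunit result was not tested.

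In LK cells the subunit genes showed little change with IL-1β. Of 79 members tested, 26 had a positive log2 fold change and the median was -0.08, against -0.03 for all genes tested. With edgeR, 0 members were called higher (6.77% of all genes tested) and 1 lower (2.57%). DESeq2 called 1 higher, and the share of all genes it called is not given here. At an unadjusted edgeR p under 0.05, 1 member was higher and 7 were lower, against 1795 and 1381 of all 12835 genes tested. Libraries did not overlap for 7 members in the higher direction (23.5% of all genes) and for 17 in the lower direction (22.2%).
The gene called lower was Cox6b2. It was at 96.6, 74.0 and 79.8 CPM with PBS and at 32.2 and 48.4 CPM with IL-1β, and the groups did not overlap (log2 fold change -1.05 ± 0.20 SE, edgeR adjusted p = 0.0165). Its share of the summed Cox6b1 and Cox6b2 TPM was 25.6%, 24% and 21.8% with PBS, against 11.6% and 16.3% after IL-1β. In LSK this share was 13.5%, 8.98% and 12.9% with PBS, against 5.21% and 5.85% after IL-1β, also without overlap, while the level of Cox6b2 itself overlapped, at 16.2, 14.7 and 28.5 CPM and at 11.3 and 26.3 CPM. Cox6b1 was at 179, 149 and 183 CPM in LK with PBS and at 156 and 158 CPM with IL-1β (-0.11 ± 0.11 SE). Cox6b2 was no longer called without PBS replicate 1 (edgeR adjusted p = 0.0517), without IL-1β replicate 1 (0.171) or in a joint fit with the LSK libraries (0.181).

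Cox6a2, the heart and muscle isoform of Cox6a1, had the largest positive value in LK. It rested on few reads: 4, 5 and 9 counts with PBS and 14 and 17 counts with IL-1β, which is 0.318, 0.257 and 0.644 CPM against 1.86 and 2.73 CPM. The groups did not overlap (2.48 ± 0.67 SE, edgeR adjusted p = 0.0506) and the gene was called under 7 of the other settings, DESeq2 among them.
Among the core subunits in LK, Atp5b was at 1949, 1740 and 2135 CPM with PBS and at 1977 and 2003 CPM with IL-1β (0.04 ± 0.12 SE), and Ndufs1 was at 209, 209 and 202 CPM and at 193 and 207 CPM (-0.05 ± 0.09 SE). Both overlapped between groups. Others did not, by small margins: Atp5a1 lay higher with IL-1β, at 1509, 1391 and 1623 CPM and at 1668 and 1732 CPM (0.17 ± 0.11 SE, edgeR adjusted p = 0.384), and Sdhb, the iron-sulfur subunit of complex II, lay lower, at 179, 144 and 149 CPM and at 124 and 137 CPM (-0.27 ± 0.12 SE, edgeR adjusted p = 0.214). Neither passed the test.
Other genes did move in these libraries. All 6 myeloid progenitor markers were called higher with IL-1β (summed level 4430 to 9755 CPM with PBS, 18336 to 21506 CPM with IL-1β) and 4 of 8 erythroid markers were called lower (2366 to 2734 CPM and 1428 to 1591 CPM, none at 0). Whether Cox6b2 followed that change was not tested.

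The difference between the LSK and the LK response was tested directly over the 10 hematopoietic libraries. For 75 of 80 members the log2 fold change was larger in LSK, with a median difference of 0.80, against -0.12 over all genes tested. With edgeR, 0 members were called in either direction (0.00723% of all genes higher and 0.0217% lower). At an unadjusted edgeR p under 0.05, 31 were higher and 0 lower, against 647 and 1320 of all 13839 genes tested. DESeq2 called 5 higher, and the share of all genes it called is not given here. Ndufa5 was among the largest differences (1.49 ± 0.36 SE, edgeR adjusted p = 0.152), and in LK its libraries overlapped, at 49.5, 42.5 and 36.1 CPM with PBS and at 37.1 and 43.7 CPM with IL-1β in the joint fit. Atp5mpl, a small ATP synthase subunit, had a difference of 1.44 ± 0.48 SE and was among 3 members, with Sdhd and Ndufs3 (the latter named after its values were seen), whose IL-1β libraries lay above all PBS libraries in LSK and below all of them in LK, a pattern held by 1.78% of the 12264 genes tested in both. Of the 79 members tested in both, 32 lay above in LSK and 17 below in LK, each taken alone. A joint count of 3 is no more than these separate counts would give, so it is not read as a result about the members. The estimate depended on LSK IL-1β replicate 2, the shallowest library: without it the median difference was 0.44. Without LSK PBS replicate 2, 12 members were called higher and 1 lower, with the share of all genes called not given here. In that fit 75 of 80 members had the larger value in LSK, against 44.0% of all genes tested.

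LSK and LK cells of the PBS mice were compared to see how the level of the family differs between these progenitor fractions. The subunit genes were lower in LSK. Of 80 members tested, 73 had a negative log2 fold change (LSK relative to LK) with a median of -0.65, against 0.04 for all genes tested. With edgeR, 35 members were called lower in LSK (12.8% of all genes tested) and 0 higher (18.4%), and DESeq2 called 0 higher. At an unadjusted edgeR p under 0.05, 2 were higher and 46 lower, against 3058 and 2441 of all 12737 genes tested. All 3 LSK libraries lay below all 3 LK libraries for 46 members (24.2% of all genes) and above them for 2 (26.2%). Because the LSK PBS libraries are also the controls of the IL-1β comparison in LSK, the 2 sets of values are not independent.

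**Figure D3:**
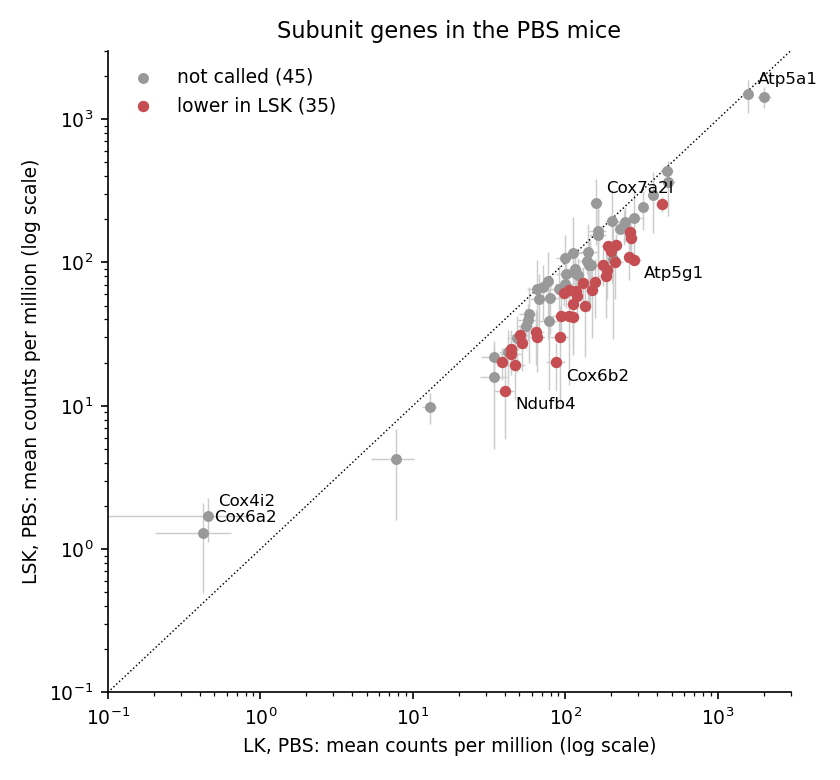
Mean CPM of each of 80 subunit genes in LSK (vertical) against LK (horizontal) with PBS, both on log scales, with SD over 3 libraries each. The dotted line marks equal levels and red points are the 35 genes called lower in LSK. Most points lie below the line, Cox6b2 farthest, and Cox4i2 and Cox6a2 lie above it at levels under 3 CPM.

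Calls came from every complex: 15 of 37 genes in complex I, 1 of 4 in complex II, 6 of 8 in complex III, 9 of 14 in complex IV and 4 of 17 in the ATP synthase. Cox6b2 differed most, at 16.9, 14.8 and 28.7 CPM in LSK and 101, 76.0 and 83.6 CPM in LK (-2.10 ± 0.27 SE, edgeR adjusted p = 0.000996). Uqcr11, a small subunit of complex III, was at 27.7, 34.2 and 63.4 CPM in LSK and 122, 102 and 110 CPM in LK (-1.41 ± 0.29 SE). Atp5g1 had the most even libraries, at 108, 97.0 and 109 CPM in LSK and 316, 255 and 268 CPM in LK (-1.42 ± 0.15 SE, edgeR adjusted p = 0.000426). For these genes each LSK library lay far below each LK library.
Sdhd, a membrane anchor of complex II, was lower in LSK at 102, 79.1 and 144 CPM against 270, 249 and 266 CPM (-1.27 ± 0.22 SE). The flavoprotein Sdha was not, at 406, 466 and 425 CPM against 456, 420 and 515 CPM (-0.10 ± 0.15 SE). Atp5a1 likewise overlapped, at 1283, 1934 and 1241 CPM in LSK and 1573, 1429 and 1700 CPM in LK (-0.08 ± 0.22 SE). Within complex II and the ATP synthase the members thus ranged from no detectable difference to more than a log2 unit.
Of the members with a positive value, Cox4i2 was at 1.37, 2.36 and 1.36 CPM in LSK and 0.249, 0.211 and 0.899 CPM in LK (1.90 ± 0.79 SE, edgeR adjusted p = 0.099). Cox7a2l, which takes part in joining complexes III and IV, was at 162, 401 and 211 CPM against 160, 144 and 172 CPM (0.70 ± 0.30 SE, edgeR adjusted p = 0.109). PBS replicate 2 was the highest LSK library for both.
The number of calls depended on the libraries. Without LK PBS replicate 1, 13 members were called lower in LSK, without LSK PBS replicate 1, 22, and without LK PBS replicate 3, 20. LK PBS replicate 1 had 3.49% of its counts on rRNA, against 0.0649% and 0.199% in LK PBS replicates 2 and 3. The part of rRNA in these calls was not tested. Leaving out LSK PBS replicate 2 gave 50. With the gene length offset 25 members were called lower and 1 higher. For these counts the share of all genes called is not given here. Without LK PBS replicate 1, 72 of 80 members were negative, while 52.1% of all genes tested were positive. With the offset 66 of 80 were negative, while 50.5% of all genes were positive. Per length, the summed members gave 16992, 22737 and 20750 TPM in LSK with PBS, 25037 and 30184 TPM in LSK with IL-1β and 25461 to 27769 TPM in LK with PBS.

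In MSC cultures, the comparison asked how 72 h of IL-1β changed cells labelled as stromal, in libraries that held more macrophage than mesenchymal marker RNA. Here the subunit genes were lower with IL-1β. Of 82 members tested, 73 had a negative log2 fold change with a median of -0.35, against 0.00 for all genes tested. With edgeR, 25 were called lower (4.31% of all genes tested) and 1 higher (7.14%). Both IL-1β libraries lay below both PBS libraries for 59 members (29.8% of all genes) and above them for 6 (31.3%). For 20 of the 80 members tested in both LSK and MSC, the IL-1β libraries lay above all PBS libraries in LSK and below all of them in MSC, against 7.76% of the 11566 genes tested in both. Taken alone, 33 of these members lay above in LSK and 59 below in MSC, and the joint count largely follows from these counts.
The calls were spread over 4 complexes: 13 of 38 genes in complex I, 3 of 8 in complex III, 5 of 15 in complex IV and 4 of 17 in the ATP synthase. None of the 4 complex II genes was called by edgeR, and their median was -0.07. At an unadjusted edgeR p under 0.05, 1 of them was lower, against 1869 of all 13239 genes tested. The changes were modest, and no member called lower had fallen by more than 0.82 on the log2 scale.

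In complex I, Ndufb3, an accessory subunit of the membrane arm, fell furthest. It was at 56.7 and 51.7 CPM with PBS and at 28.9 and 32.7 CPM with IL-1β (-0.82 ± 0.12 SE, edgeR adjusted p = 0.0157). Ndufa1, another membrane-arm subunit, was at 46.4 and 48.3 CPM and at 26.9 and 28.9 CPM (-0.77 ± 0.11 SE, edgeR adjusted p = 0.0146). Ndufa4, named for complex I and now placed in complex IV, was at 129 and 122 CPM and at 72.2 and 80.1 CPM (-0.72 ± 0.11 SE). In these genes the replicates lay within a few CPM of each other and the groups were well apart.
The core subunits of complex I differed among themselves. Ndufs1 was at 70.4 and 72.8 CPM with PBS and at 69.4 and 72.8 CPM with IL-1β (-0.01 ± 0.10 SE). Ndufv2, a core subunit with an iron-sulfur cluster, was called lower, at 92.4 and 92.0 CPM and at 58.3 and 62.3 CPM (-0.61 ± 0.10 SE, edgeR adjusted p = 0.0190).

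In complex III, Uqcr11 was at 71.7 and 86.3 CPM with PBS and at 45.7 CPM in both IL-1β libraries (-0.79 ± 0.12 SE, edgeR adjusted p = 0.0177). The large core protein Uqcrc1 was at 177 and 156 CPM and at 148 and 154 CPM (-0.14 ± 0.11 SE). These 2 subunits of the same complex thus had different values, whereas Uqcrb (-0.31) and the core protein Uqcrc2 (-0.32) lay close together.
In complex IV, Cox7c was at 142 and 162 CPM with PBS and at 91.5 and 103 CPM with IL-1β (-0.65 ± 0.12 SE, edgeR adjusted p = 0.0272), and Cox5b was at 129 and 116 CPM and at 81.0 and 84.6 CPM (-0.56 ± 0.11 SE). Cox5a overlapped, at 137 and 176 CPM and at 144 and 165 CPM (-0.02 ± 0.15 SE). For Cox4i1, the main isoform of a core regulatory subunit, the groups of 486 and 613 CPM and of 349 and 393 CPM did not overlap, but the test was not passed (-0.57 ± 0.15 SE, edgeR adjusted p = 0.0635).
In the ATP synthase, Atp5l, a subunit of the membrane part, was at 151 and 160 CPM with PBS and at 88.4 and 105 CPM with IL-1β (-0.69 ± 0.12 SE, edgeR adjusted p = 0.0242). Atp5g1 was called lower as well, at 85.2 and 99.9 CPM and at 59.1 and 61.1 CPM (-0.63 ± 0.12 SE). The alpha and beta F1 subunits overlapped: Atp5b was at 633 and 498 CPM and at 535 and 595 CPM, and Atp5a1 was at 530 and 594 CPM and at 497 and 534 CPM.

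**Figure D4:**
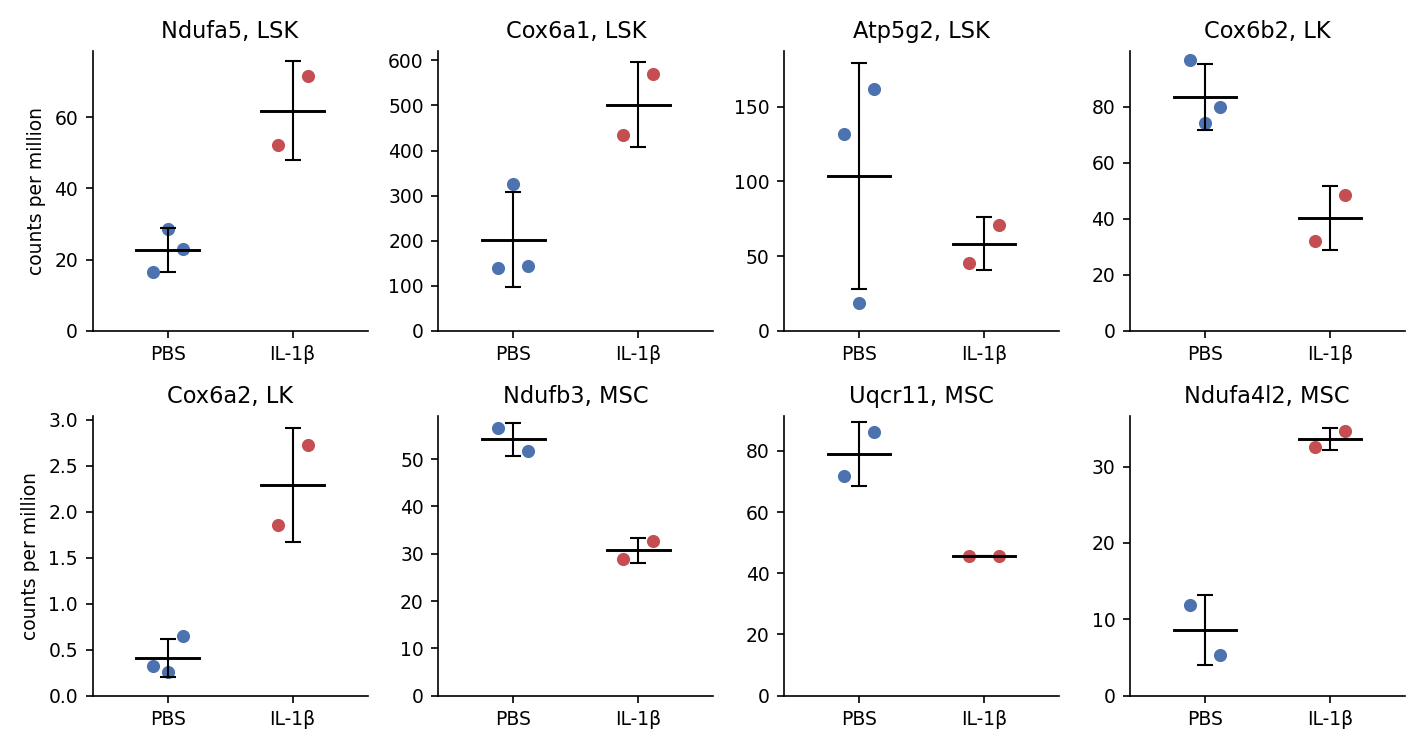
CPM of 8 named subunit genes in each library (points), with the mean (line) and SD (bars), PBS in blue and IL-1β in red. The vertical axes start at 0. In LSK, Ndufa5 and Cox6a1 are higher in both IL-1β libraries and Atp5g2 overlaps because PBS replicate 2 is low. In LK, Cox6b2 is lower and Cox6a2 higher, and in MSC, Ndufb3 and Uqcr11 are lower and Ndufa4l2 higher.

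Ndufa4l2 was the single member called higher. It is the isoform of Ndufa4 known to be induced in hypoxia. It was at 11.8 and 5.35 CPM with PBS and at 32.6 and 34.7 CPM with IL-1β (2.05 ± 0.35 SE, edgeR adjusted p = 0.0261). Its share of the summed Ndufa4 and Ndufa4l2 TPM was 10.4% and 5.24% in the PBS cultures, against 36.2% and 35.3% after IL-1β. Ndufa4 was called lower and Ndufa4l2 higher. Cox4i2, the isoform of Cox4i1 also known from hypoxia, was at 2.83 and 1.13 CPM with PBS and at 4.13 and 4.15 CPM with IL-1β, without overlap (1.17 ± 0.48 SE, edgeR adjusted p = 0.168).
The MSC calls needed both IL-1β libraries, and with either left out the members were no longer called. Such a fit has 1 library in that group, and whether other genes called lower lost their calls as well is not given here. With each of the 4 libraries left out in turn, the median of the members ran from -0.46 to -0.31. Without IL-1β replicate 1, 21 members were lower at an unadjusted p under 0.05, and without replicate 2, 35. Left with 1 IL-1β library, the fit assumes that it varies like the PBS group.
Counts of calls changed with the length offset. The 25 members called lower had a median length of 1381 bases and the other 57 one of 1718 bases. With the length offset, 7 members were called lower, the median was -0.19 and 63 of 82 were negative. The share of all genes called with the offset is not given here, and 48.0% of all genes were then positive. Ndufb3 was then at -0.49 (edgeR adjusted p = 0.0962) and Uqcr11 at -0.42 (edgeR adjusted p = 0.0504).
Of 8 macrophage markers, 5 were called higher in the same libraries (Lyz2, Cd14, Adgre1, Csf1r and Mrc1), Ptprc lay higher by too little to be called, and Cd68 (-0.47) and Tyrobp (-0.33) lay below PBS in both IL-1β libraries without being called. Their summed level went from 8781 to 12593 CPM with PBS to 26613 to 27108 CPM with IL-1β, with none at 0. The 10 mesenchymal markers summed to 1473 to 2963 CPM and to 3852 to 4278 CPM, with 1 called higher. The part of these cells in the subunit result was not tested.

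Other genes of the pathway were counted beside the nuclear subunits. For the mitochondrially encoded subunits, 13 in number, the medians were negative in each population. The median log2 fold change was -2.09 over 8 genes tested in LSK, -0.87 over 10 in LK and -1.15 over 11 in MSC, with 0, 0 and 3 called lower by edgeR and 0 called higher. At an unadjusted edgeR p under 0.05, 5 of them were lower in LSK, 0 in LK and 8 in MSC. Over all genes, 1379 of 13132 were lower in LSK by this measure, 1381 of 12835 in LK and 1869 of 13239 in MSC. In LSK the nuclear and the mitochondrial genes therefore had medians of opposite sign.
mt-Co1, the catalytic subunit of complex IV, had the most counts of these genes. Scaled to library depth, it was at 1370, 389 and 2494 unscaled CPM (before TMM) in LSK PBS replicates 1, 2 and 3. After IL-1β it was at 302 and 320 CPM, so that PBS replicate 2 lay close to the IL-1β libraries. Together the mitochondrially encoded subunits took 0.275%, 0.0767% and 0.504% of counts in LSK with PBS, against 0.0570% and 0.0591% after IL-1β. PBS replicate 2 lay nearest to the IL-1β libraries in this share as well. These counts leave out read pairs that align to more than 1 place. mt-Co2 had 22 counts in LSK PBS replicate 1 and mt-Atp8 had 0, and neither can be read as a level of the transcript.

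**Figure D5:**
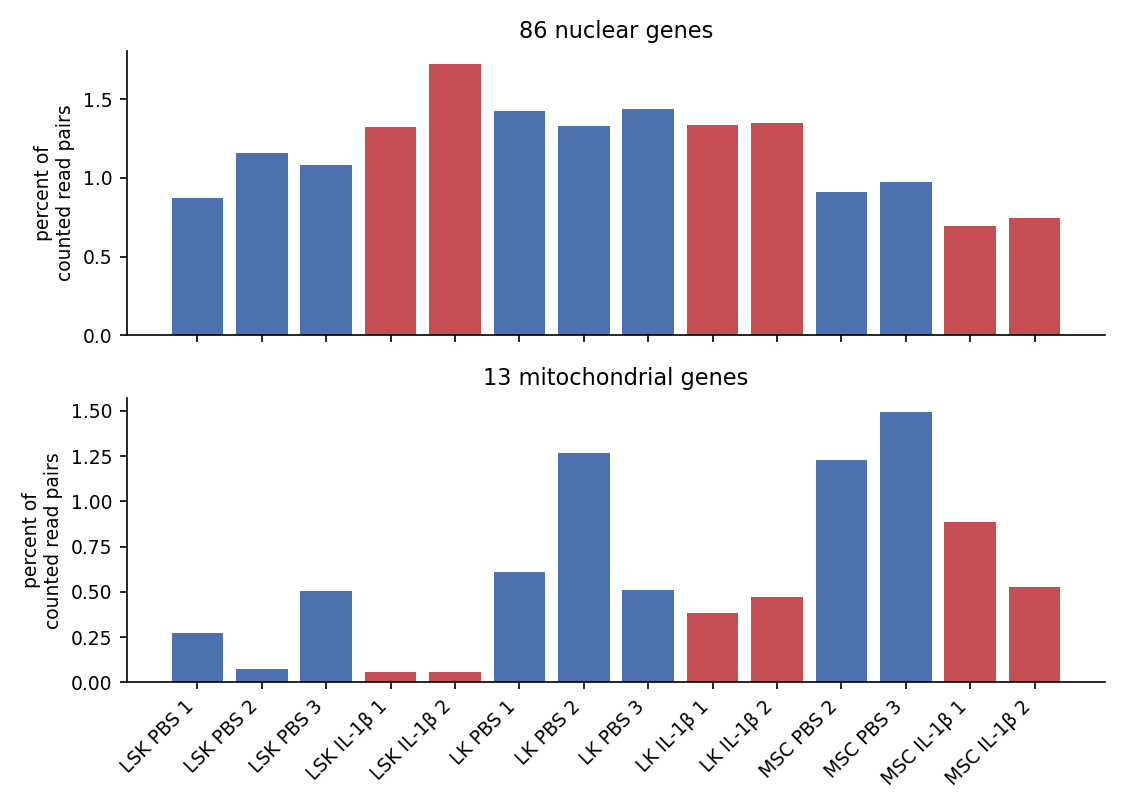
Percent of counted read pairs on the 86 nuclear subunit genes (top) and on the 13 mitochondrially encoded subunit genes (bottom) in each of 14 libraries, PBS in blue and IL-1β in red. In LSK the nuclear share is higher and the mitochondrial share lower with IL-1β, with PBS replicate 2 low in the lower panel. In MSC both shares are lower with IL-1β.

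The mitochondrial ribosomal proteins, nuclear genes needed to translate those 13 subunits, gave medians close to those of the subunits. Over 77 genes tested, the median was 0.56 in LSK, -0.06 in LK and -0.31 in MSC, and -0.73 in LSK against LK with PBS. They were called lower by edgeR for 0, 2, 5 and 40 genes in these comparisons, and higher for 0 in each. At an unadjusted edgeR p under 0.05, 22 were higher in LSK, against 1052 of all 13132 genes tested. The 46 assembly factors tested had medians of 0.41, -0.05, -0.18 and -0.48, with 0, 0, 3 and 11 called lower.
For 13 enzymes of the TCA cycle, which supplies complexes I and II with electrons, the medians were 0.29 in LSK, 0.07 in LK and -0.04 in MSC, with 0 called by edgeR and 4, 1 and 0 higher against 0, 1 and 1 lower at an unadjusted p under 0.05. In LSK against LK their median was -0.69, with 8 called lower. The 5 electron carriers had medians of 0.65, 0.08, -0.32 and -0.31. The 10 regulators of mitochondrial biogenesis tested, among them Nrf1, Gabpa, Yy1 and Tfam, had medians of -0.03, -0.24, 0.05 and -0.10. In the 4 comparisons edgeR called 0 of them, with 0, 0, 3 and 0 higher and 0, 2, 1 and 1 lower at an unadjusted p under 0.05. Over all genes by this measure, 1052 were higher and 1379 lower of 13132 in LSK, and 1795 and 1381 of 12835 in LK. In MSC they were 2099 and 1869 of 13239, and in LSK against LK 3058 and 2441 of 12737.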

How the data were processed

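The counts are those the authors deposited, read pairs per gene and library, not normalized. Per the submitters' processing notes and the study's methods, reads were trimmed with fastp 0.20.0, aligned to GRCm38 with HISAT2 2.0.1, sorted with SAMtools 1.10 and counted by strand with featureCounts 2.0.2, whose default leaves out pairs that align to several places or overlap several genes. Genes with near-identical copies can lose reads this way. Libraries were made after rRNA depletion. Identifiers were matched to GENCODE M21 symbols (55227 of 55487), and 13 pseudogene and noncoding matches were left out.

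Each comparison was fitted over all genes with edgeR 4.0.16 in R 4.3.3 (filterByExpr, TMM, robust quasi-likelihood F test, Benjamini-Hochberg over all genes tested). Standard errors are the log2 fold change over the square root of F. Calls needed an adjusted p under 0.05 together with a change of over 0.5 log2 units. CPM are after TMM scaling within each fit and so differ slightly between fits. Marker sums are unscaled CPM. TPM were computed from counts and the tables' gene lengths over nuclear protein-coding genes. The script was tested on simulated data. Alternatives were DESeq2 1.42.0, other size factors, other filters, a gene length offset, blocking on replicate number, fitting LSK and LK jointly and leaving out each library. The members and gene lists were chosen with earlier results of these data known. Named members were those called (up to 12 of lowest p), the 3 highest and 3 lowest fold changes, core subunits and tissue isoforms, of which 1 is not reported here. Levels were named for the highest and lowest members.

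Among the PBS libraries, LSK and LK number 3 deviated together (correlation of deviations from group means 0.47). For numbers 1 and 2 the same-number pairs gave 0.21 and 0.13. Unlike pairs of numbers 1 and 2 gave similar values, 0.16 for LK 1 with LSK 2 and 0.12 for LK 2 with LSK 1. Unlike pairs that involve number 3 were all negative, from -0.38 (LK 1 with LSK 3) to -0.21 (LK 3 with LSK 2). The labels do not say that a number is a mouse. Within LSK, numbers shared by PBS and IL-1β did not pair (0.13 and -0.03). MSC IL-1β replicate 3, named in the table's header without a column was not analysed here.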

Additional observations from a re-analysis of the deposited data

Results flagged for a closer look

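For 20 of 80 members tested in both LSK and MSC, every IL-1β library lay above every PBS library in LSK and below every PBS library in MSC, and 1 member lay above in both. Over all 11566 genes tested in both, 7.76% were above in LSK and below in MSC. Each taken alone, 33 of these 80 members lay above in LSK and 59 below in MSC, so a joint count of this size is largely given by those separate counts. Of these 20, 10 had a negative log2 fold change in LK. For 3 of 79 members, Sdhd, Ndufs3 and Atp5mpl, the IL-1β libraries lay above PBS in LSK and below PBS in LK, against 1.78% of the 12264 genes tested in both. Here 32 members lay above in LSK and 17 below in LK, each taken alone, and a joint count of 3 is no more than these would give. The difference between LSK and MSC was not tested, since mice treated for weeks and cultures treated for hours are separate experiments.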

How the results depend on the processing

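No median of the members changed sign under any setting tried, while counts of calls have no direction. With all libraries kept, 20 medians or call counts moved under another setting and 111 did not. A count moved if it changed by over 1.5 times, or to or from 0. A median moved if it changed by more than the spread between libraries. In LSK, members called higher (0) became 13 with DESeq2, 21 with no filter on low counts, 21 with the replicate block (1 residual degree of freedom) and 20 in the joint fit, and 0 to 11 with a library left out, the median then being 0.48 to 0.96. In LK, members called higher (0) became 1 with DESeq2, DESeq2 size factors, no filter, a minimum of 10 reads in 2 libraries, the length offset or the replicate block (0 to 1 with a library left out), and members called lower (1) became 0 in the joint fit (0 to 1 with a library left out, median -0.15 to -0.04). In MSC, upper-quartile factors gave a median of -0.42, no filter gave 2 called higher, and the length offset gave 7 called lower with a median of -0.19. With a library left out, 0 to 2 were called higher and 0 to 38 lower, with medians of -0.46 to -0.31. In LSK against LK, 1 was called higher with the length offset, alone or with the replicate block. With a library left out, 0 to 1 were called higher and 13 to 50 lower, with medians of -0.86 to -0.57. The difference of the responses had 5 members called higher with DESeq2 and 19 with no filter, a median of 0.51 with the length offset, and with a library left out 0 to 12 higher (12 without LSK PBS replicate 2, 2 without LSK IL-1β replicate 1), 0 to 1 lower and medians of 0.44 to 1.05. The replicate block gave 42 members lower in LSK than in LK and 0 called in the difference of the responses, and changed no other call count by over 1.5 times. No paired analysis was possible in MSC because the groups share only number 2. Counts of members called under these other settings, here and above, come without the share of all genes called. They are therefore not set against a background. The causes were not tested.

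Groups of 2 and 3 libraries and a biological coefficient of variation of 0.377 in LSK, against 0.183 in LK and 0.149 in MSC, limit what could be called in LSK. Counts under 20 in a library, as for Cox6a2, give wide intervals.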
